A study of Mus musculus with 23 samples.

Results

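Transcripts of 10 leukocyte and matrix integrins were followed across the microglia of APP, TAU and wild-type mice. The genes were Itgax, Itgam, Itgal, Itgb2, Itga9, Itga4, Itga6, Itgb1, Itgav and Itgb5, found by their annotated symbol. They were chosen with earlier results of these data known. Each had 1 probe set, so 10 probe sets were taken out of 22203, or 10 genes out of 19505 symbols. All 10 were measured, and none was removed by a filter.

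Microglia of cortex plus hippocampus had been sorted on CD45 and CD11b, and their RNA was hybridised to 23 microarrays in 6 groups. A further gate on Clec7a, a lectin receptor, restricted the groups called Clec7a+ here, which were 4 samples of the APPswlnd strain at 12 months and 4 of the P301S strain at 9 months. The 12-month wild-type (WT) C57BL6 group had 4 samples. At 3 months there were 3 APPswlnd, 4 P301S and 4 C57BL6 samples. APPswlnd mice (APP) carry human amyloid precursor protein with mutations of familial Alzheimer disease, and P301S mice (PS19, here TAU) a mutant human tau transgene. The titles of the older P301S samples give 12 months, but their age and source fields give 9 months, which was used. The labels name no Clec7a gate for the remaining groups, so strain, pathology and gate cannot be told apart between Clec7a+ and 12-month WT samples. Age also differs between Clec7a+ TAU and WT. The replicates are called biological, but separate animals and sex are not stated, so p-values measure the spread between samples.

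Integrins are pairs of an alpha and a beta chain that span the membrane and bind matrix, complement fragments or other cells. Leukocytes carry a family in which the CD11 alpha chains share the beta chain CD18, and most cells carry matrix-binding pairs built on the beta chain of Itgb1 or on the alpha chain of Itgav. Talins and kindlins bind the beta chain inside the cell and switch the pair to its binding state. In the brain, CD11b is the usual surface marker of microglia, and CD11c appears on microglia near amyloid deposits.

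Integrins moved in opposite directions in Clec7a+ microglia. Itgax was far higher and Itga9 far lower in both Clec7a+ groups than in 12-month WT, and Itgam was moderately lower. Itgb2 was called higher in Clec7a+ TAU, while Itgav, Itgb5, Itga6 and Itgb1 were not called against 12-month WT. Values below are log2 signals, on which a difference of 1 is a doubling. A gene was called at an adjusted p under 0.05 in limma, with Benjamini-Hochberg (BH) adjustment over all 22203 probe sets. Errors of fold changes are standard errors (SE). A group mean was taken as at background when it lay at or under the 95th percentile of 1449 chemosensory receptor probe sets in that group, which was between 7.73 and 8.12.

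The promoters of these 3 genes are shown because they carry the largest opposing changes, and because Itgam and Itgax are immediate neighbours among the protein-coding genes of chromosome 7 yet moved in opposite directions. The order there is Trim72, Itgam, Itgax, Itgad and Cox6a2. Each sequence is the 250 bases before the RefSeq start on the plus strand of GRCm38.p6. They lie at chr7:128129300-128129549 for Itgax, chr7:128062390-128062639 for Itgam and chr9:118711442-118711691 for Itga9. Capitals mark matches on either strand to GAGGAA, the core bound by PU.1, or to TGANTCA, the AP-1 motif; these letters were chosen after the sequences had been read. The 2 motifs do not overlap in these windows.
Itgax: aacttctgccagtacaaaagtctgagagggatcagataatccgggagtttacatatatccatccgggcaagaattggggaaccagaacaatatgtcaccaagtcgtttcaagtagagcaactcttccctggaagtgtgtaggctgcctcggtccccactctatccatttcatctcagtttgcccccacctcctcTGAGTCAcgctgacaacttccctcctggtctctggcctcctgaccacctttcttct
Itgam: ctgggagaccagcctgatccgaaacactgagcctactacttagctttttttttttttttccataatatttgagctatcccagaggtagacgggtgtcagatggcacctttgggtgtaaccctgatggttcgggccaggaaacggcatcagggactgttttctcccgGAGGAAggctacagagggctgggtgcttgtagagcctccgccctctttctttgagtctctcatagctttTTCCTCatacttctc
Itga9: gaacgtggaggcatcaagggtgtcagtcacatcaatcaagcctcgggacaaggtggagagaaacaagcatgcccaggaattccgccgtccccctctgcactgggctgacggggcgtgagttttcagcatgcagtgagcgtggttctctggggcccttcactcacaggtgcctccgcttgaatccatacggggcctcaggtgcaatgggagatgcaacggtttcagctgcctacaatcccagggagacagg
The Itgax window held 1 TGANTCA match, starting 56 bases before the gene's start, and no GAGGAA. The Itgam window held GAGGAA 84 and 15 bases before the start, the nearer on the minus strand, and no TGANTCA. The Itga9 window held neither. Of 32851 RefSeq promoter windows of that length, 23.3% held GAGGAA and 6.75% held TGANTCA. Among the integrins, 7 of 10 had an entry, of which 3 held GAGGAA and 1 held TGANTCA. A match is only a match of letters.

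**Figure D1:**
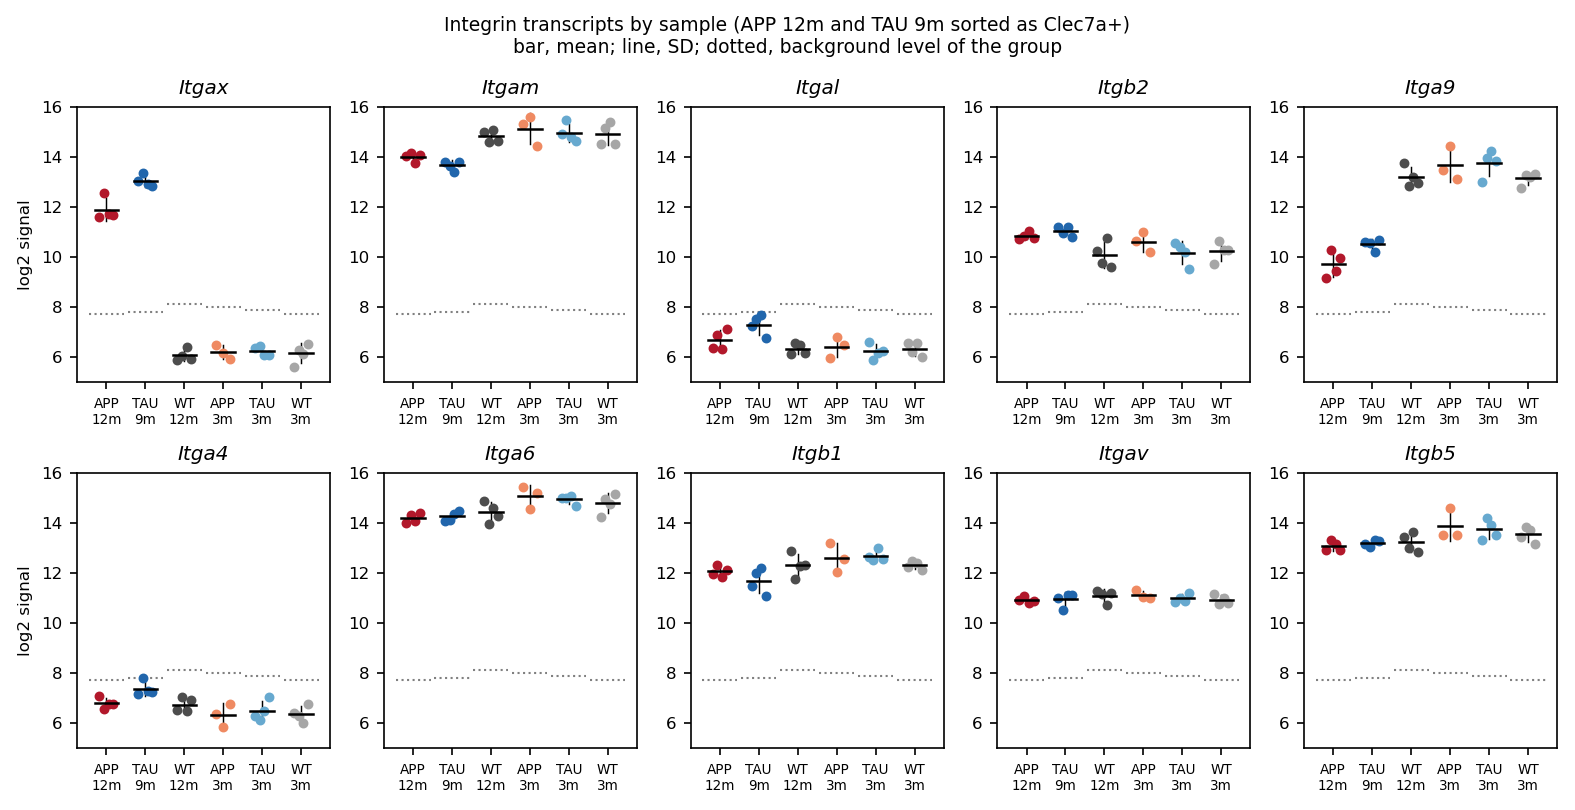
Log2 signal of each integrin in each of the 23 samples, by group, with Clec7a+ APP at 12 months and Clec7a+ TAU at 9 months at the left of each panel and the WT and 3-month groups to their right. Bars are group means, vertical lines SD and dotted lines the background level of the group; Itgax lies between 11.59 and 13.36 in the Clec7a+ samples and between 5.61 and 6.55 in all others, while Itga9 runs the other way.

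Itgax encodes CD11c, the alpha chain of a complement receptor of dendritic cells and activated macrophages. It read 11.59, 12.58, 11.71 and 11.69 in Clec7a+ APP, 13.06, 13.36, 12.92 and 12.83 in Clec7a+ TAU, and 5.91, 6.06, 6.43 and 5.94 in 12-month WT microglia. The 8 Clec7a+ samples were high in every case and overlapped with no other sample. At 3 months it read 6.48, 6.19 and 5.92 in APP, 6.38, 6.46, 6.09 and 6.09 in TAU, and 5.61, 6.31, 6.14 and 6.55 in WT. All 15 samples outside the Clec7a+ groups lay under their background level, so a fold change against them is a lower bound. Itgax was at least 13.7-fold higher in Clec7a+ APP than in 12-month WT (adjusted p = 1.75e-14, limma, BH). In Clec7a+ TAU it was at least 30.4-fold higher than in 12-month WT (adjusted p = 9.76e-16, limma, BH). In these pools of cells, more cells with a transcript and more transcript per cell cannot be told apart, here or in any later result.

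Itgax also separated the Clec7a+ groups from each other. The mean was 11.89 ± 0.46 in Clec7a+ APP and 13.04 ± 0.23 in Clec7a+ TAU (SD, n = 4 each), with no overlap, although 1 APP sample, replicate 2, came near the TAU range. The difference was -1.15 ± 0.22 on the log2 scale, or 2.22-fold lower in APP (adjusted p = 0.00711, limma, BH). The same comparison fitted on these 8 samples alone gave an adjusted p of 0.0804 without pairing. With the replicate number as a block, the fit on these 8 samples alone kept the call. The order of the 6 group means was Clec7a+ TAU, Clec7a+ APP, then 3-month TAU at 6.26 (6.255 before rounding), 3-month APP at 6.20, 3-month WT at 6.15 and 12-month WT at 6.09. The last 4 differ by less than the spread of their samples.

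Dendritic cells are the other cell type best known for CD11c. Of 12 of their markers, 4 were above background in Clec7a+ APP, 4 in Clec7a+ TAU and 3 in 12-month WT samples. The mean of the list per sample was 6.58 to 6.75 in Clec7a+ APP, 6.81 to 6.94 in Clec7a+ TAU and 6.88 to 7.13 in 12-month WT. The defining markers Flt3, Zbtb46, Xcr1 and Clec9a were at background in all 3 groups, Flt3 at 4.65, 4.68 and 4.47 in that order. The markers above background were Ccr7, Fscn1 and Batf3 in each of these groups and Wdfy4 in the Clec7a+ groups. All 13 measured microglial markers were above background in every group. Of 11 astrocyte, oligodendrocyte and neuron markers, 7 were above background in Clec7a+ APP and 6 in each other group. Their mean per sample was 7.28 to 8.32 in Clec7a+ APP, 7.39 to 8.66 in Clec7a+ TAU and 7.30 to 8.32 in 12-month WT. Gfap was called higher in Clec7a+ APP than in 12-month WT and in Clec7a+ TAU. The part of dendritic cells, astrocytes, oligodendrocytes and neurons in the integrin results was not tested.

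Itgam encodes CD11b, the alpha chain of complement receptor Mac-1 and the protein on which all samples were sorted. It read 14.06, 14.16, 13.76 and 14.10 in Clec7a+ APP, 13.82, 13.64, 13.42 and 13.82 in Clec7a+ TAU, and 14.99, 14.60, 15.07 and 14.66 in 12-month WT. Every Clec7a+ sample was lower than every 12-month WT sample. The 3-month samples covered 14.43 to 15.62 in APP, 14.66 to 15.49 in TAU and 14.54 to 15.41 in WT, around the 12-month WT values and without overlap with the Clec7a+ samples. Itgam was 2.23-fold lower in Clec7a+ TAU than in 12-month WT (adjusted p = 0.00314, limma, BH), a call kept in all 33 alternatives. In Clec7a+ APP it was 1.75-fold lower, with a log2 fold change of -0.81 ± 0.24 (adjusted p = 0.0363, limma, BH).

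The Itgam call in Clec7a+ APP was a narrow one. The adjusted p was 0.0678, 0.121 and 0.0532 without Clec7a+ APP replicate 1, 3 or 4, and 0.0958, 0.0715 and 0.0509 without 12-month WT replicate 1, 3 or 4. It was 0.0933 with the arrays centred on their medians and 0.108 with array weights. The direction held each time. Microglial markers were lower in the same samples: the mean of the 13 per sample was 14.46 to 14.86 in Clec7a+ APP, 14.51 to 14.84 in Clec7a+ TAU and 15.60 to 16.02 in 12-month WT. Of the 13, 8 fell in Clec7a+ APP and 9 in Clec7a+ TAU, where 3.48% and 3.67% of all probe sets were called lower. Neutrophils also carry CD11b; 0 of their 10 markers were above background in Clec7a+ APP, 0 in Clec7a+ TAU and 1 in 12-month WT, with sample means of 5.75 to 5.87, 5.77 to 5.98 and 6.16 to 7.36 in that order. Their part in the Itgam difference was not tested.

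Itgb2 encodes CD18, the beta chain that CD11a, CD11b and CD11c all need to reach the surface. Its signal was 10.73, 10.86, 11.04 and 10.77 in Clec7a+ APP, 11.19, 10.97, 11.22 and 10.79 in Clec7a+ TAU, and 10.23, 9.78, 10.76 and 9.59 in 12-month WT. The WT samples spread widely, and WT replicate 3 lay inside the Clec7a+ APP range but just under the lowest Clec7a+ TAU sample. Itgb2 rose 1.94-fold in Clec7a+ TAU against 12-month WT (adjusted p = 0.0196, limma, BH). In Clec7a+ APP the log2 difference of 0.76 ± 0.25 was not called (adjusted p = 0.0656), with a 95% interval of 0.23 to 1.29.

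Single libraries moved both Itgb2 results across the threshold. The Clec7a+ TAU call was lost without 12-month WT replicate 2 or 4 (adjusted p of 0.0702 and 0.0824), without Clec7a+ TAU replicate 1 or 3 (0.0578 and 0.0593), and with only the 2 groups compared (0.0601). Without both WT replicates 2 and 4 the log2 difference was 0.55 (adjusted p = 0.322). The Clec7a+ APP difference passed without 12-month WT replicate 3, at 0.98 (adjusted p = 0.0106), and without 3-month TAU replicate 4 (adjusted p = 0.0423). It also passed with quantile normalization (0.0303), a filter on dim probe sets (0.0379), array weights (0.0349), the replicate block (0.0487) and a Y-linked covariate (0.0171).

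Itgal encodes CD11a, the alpha chain of the lymphocyte integrin LFA-1, which binds ICAM proteins. It read 6.36, 6.90, 6.32 and 7.12 in Clec7a+ APP, 7.26, 7.51, 7.68 and 6.77 in Clec7a+ TAU, and 6.13, 6.57, 6.48 and 6.18 in 12-month WT. The TAU samples were the high ones and did not overlap with WT, but all 12 values lay under the background level of their group. The difference of 0.97 (0.965 before rounding) ± 0.23 in Clec7a+ TAU was called (adjusted p = 0.0101, limma, BH), but with both groups at background no fold is given. In T and NK cells, where CD11a is abundant, 2 of 14 markers were above background in each of these 3 groups, Cd4 and Klrb1c in the Clec7a+ groups and Cd4 and Il7r in 12-month WT, with sample means of 5.95 to 6.15 in Clec7a+ APP, 6.16 to 6.21 in Clec7a+ TAU and 5.95 to 6.52 in 12-month WT. The NK receptor gene Klrb1c averaged 8.05 ± 0.31 in Clec7a+ APP, 9.65 ± 0.43 in Clec7a+ TAU and 8.03 ± 1.10 in 12-month WT (SD, n = 4 each), and was called higher in TAU than in WT (adjusted p = 0.0443, limma, BH). Il7r, of the same list, went the other way and was called lower in both Clec7a+ groups than in 12-month WT. The part of T and NK cells in the Itgal difference was not tested.

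Itga9 encodes an alpha chain that pairs with the Itgb1 product and binds tenascin, osteopontin and VCAM proteins. It read 9.18, 10.28, 9.45 and 9.96 in Clec7a+ APP, 10.59, 10.56, 10.21 and 10.68 in Clec7a+ TAU, and 13.75, 12.85, 13.20 and 12.97 in 12-month WT. All Clec7a+ samples were low but above background, and the gap to WT was wider than the range within any group. At 3 months it read 13.50, 14.46 and 13.13 in APP, 13, 13.97, 14.23 and 13.86 in TAU, and 12.78, 13.27, 13.21 and 13.32 in WT. Itga9 was 11.1-fold lower in Clec7a+ APP than in 12-month WT (log2 fold change -3.48 (-3.475 before rounding) ± 0.29, adjusted p = 1.56e-08, limma, BH). In Clec7a+ TAU it was 6.42-fold lower (-2.68 ± 0.29, adjusted p = 1.25e-06).

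The order of the Itga9 group means was 3-month TAU at 13.77 (13.765 before rounding), 3-month APP at 13.70, 12-month WT at 13.19, 3-month WT at 13.15 (13.145), Clec7a+ TAU at 10.51 and Clec7a+ APP at 9.72. No pair of the first 4 that was compared was called. The Clec7a+ groups differed by -0.79 ± 0.29 (APP minus TAU), with overlapping samples, and this was not called (adjusted p = 0.321, limma, BH; 95% interval -1.40 to -0.18).

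Itga4 encodes the alpha chain with which leukocytes bind VCAM proteins and fibronectin on vessel walls. Its values were 6.58 to 7.09 in Clec7a+ APP, 7.16 to 7.82 in Clec7a+ TAU and 6.49 to 7.04 in 12-month WT, at background throughout. The TAU samples lay above both of the other groups without overlap, by 0.64 ± 0.23 against WT, which was not called (adjusted p = 0.0902, limma, BH) but was with centred arrays (0.0448) or quantile normalization (0.0285). Monocytes carry this chain. Of their 9 markers 1, Ly6c1, was above background in each of these groups. Ccr2 was at background, at 5.97 in Clec7a+ APP, 5.74 in Clec7a+ TAU and 5.79 (5.785) in 12-month WT. Fn1, of the same list, was called higher in both Clec7a+ groups than in 12-month WT. Its means of 7.265 in Clec7a+ APP, 6.83 in Clec7a+ TAU and 5.46 in 12-month WT were at background. The list's median log2 difference from 12-month WT was -0.03 in Clec7a+ APP and -0.30 in Clec7a+ TAU. The part of monocytes in the Itga4 difference was not tested.

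Itgb1 encodes the beta chain shared by most matrix-binding integrins, and Itga6 a laminin-binding alpha chain that pairs with it. Itgb1 read 11.98, 12.31, 11.85 and 12.13 in Clec7a+ APP, 11.49, 11.99, 12.19 and 11.09 in Clec7a+ TAU, and 12.88, 11.78, 12.30 and 12.32 in 12-month WT. The 3 groups overlapped, and the differences from WT of -0.25 in APP and -0.63 in TAU were not called (adjusted p of 0.607 and 0.136, limma, BH). The 95% interval was -0.78 to 0.27 in APP and -1.15 to -0.11 in TAU. Itga6 spanned 13.99 to 14.42 in Clec7a+ APP, 14.08 to 14.47 in Clec7a+ TAU and 13.95 to 14.88 in 12-month WT, with differences of -0.22 (95% interval -0.68 to 0.24) and -0.16 (-0.62 to 0.30).

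Itgav encodes the alpha chain of the vitronectin receptors, and Itgb5 one of its beta chains. Itgav spanned 10.79 to 11.09 in Clec7a+ APP, 10.53 to 11.14 in Clec7a+ TAU and 10.72 to 11.29 in 12-month WT. Its difference from WT was -0.18 in APP (95% interval -0.52 to 0.17) and -0.15 in TAU (-0.49 to 0.19), the narrowest intervals among the 10 genes. Itgb5 spanned 12.91 to 13.34 in Clec7a+ APP, 13.06 to 13.33 in Clec7a+ TAU and 12.83 to 13.64 in 12-month WT, with differences of -0.14 (-0.64 to 0.36) and -0.02 (-0.52 to 0.48).

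Counted together, 3 of the 10 genes were called in Clec7a+ APP against 12-month WT, 1 higher and 2 lower, where 9.08% of all probe sets were called. The median log2 fold change was -0.16 over the 10 genes and -0.06 over all probe sets. The groups did not overlap for 3 genes, against 11.6% of all probe sets. In Clec7a+ TAU against 12-month WT, 5 of 10 were called, 3 higher and 2 lower, where 8.76% of all probe sets were. Of those 5, Itgal was at background in both groups. The medians were -0.09 and -0.05, and the groups did not overlap for 6 genes, against 11.9% of all probe sets. Both comparisons use the same 4 WT samples. Because the 10 genes were chosen with earlier results of these data known, these counts are no test of the family. Between the Clec7a+ groups 1 of 10 was called, Itgax, where 0.928% of all probe sets were, and the groups did not overlap for Itgax and Itga4, against 4.7% of all probe sets.

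**Figure D2:**
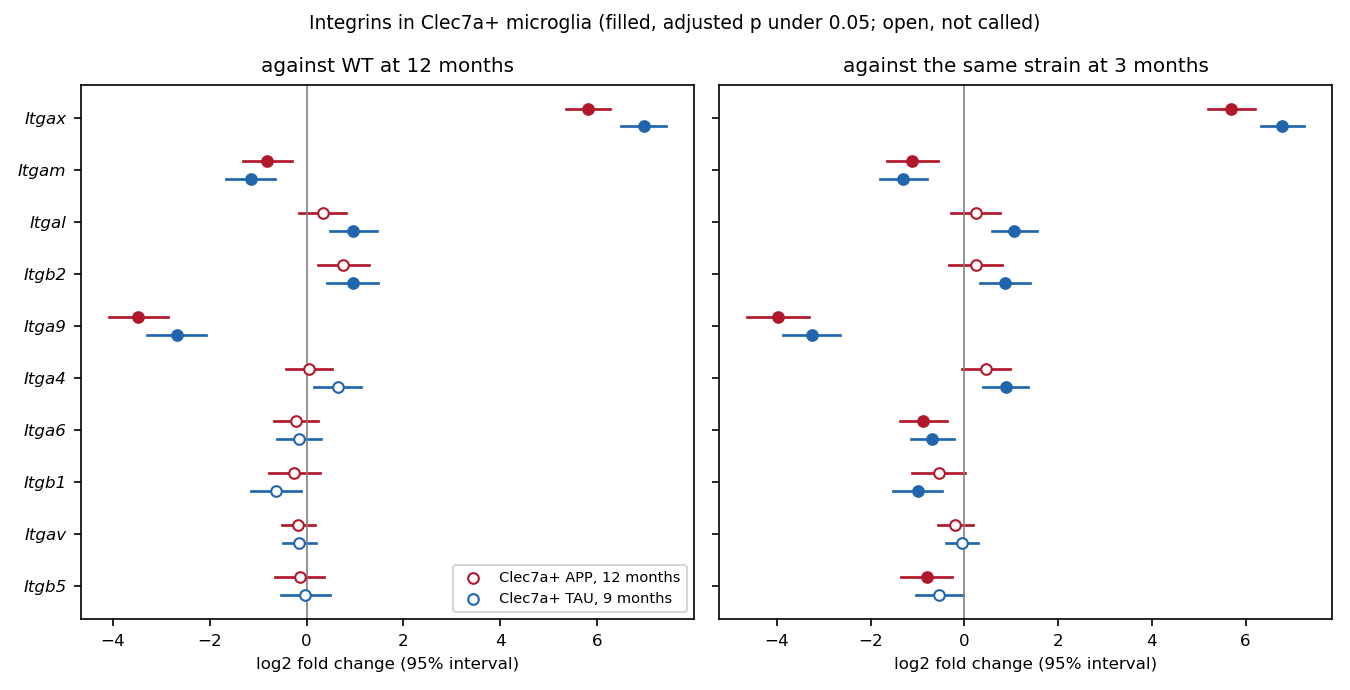
Log2 fold changes with 95% intervals of the 10 integrins in Clec7a+ APP (red) and Clec7a+ TAU (blue), against 12-month WT at the left and against the same strain at 3 months at the right; filled points have an adjusted p under 0.05. The fitted differences of Itgax, against samples at background, are 5.81 and 6.96, and Itga9 stands at -3.48 and -2.68 against 12-month WT, while Itgav lies near 0 in both panels.

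Against their own strain at 3 months, more of the matrix integrins were called. In Clec7a+ APP against 3-month APP, 5 of 10 genes were called, where 12.1% of all probe sets were, and the groups did not overlap for 5 genes, against 20% of all probe sets. Itgax was at least 14.9-fold higher (adjusted p = 1.51e-13, limma, BH) and Itga9 15.8-fold lower (adjusted p = 6.47e-09). Itgam fell by 1.11 ± 0.26 on the log2 scale (adjusted p = 0.00561), Itga6 by 0.87 ± 0.24 (adjusted p = 0.0171) and Itgb5 by 0.80 ± 0.26 (adjusted p = 0.0480). The Itgb5 call depended on 3-month APP replicate 2, whose signal of 14.61 stood apart from 13.54 and 13.52 in its group. Without that sample the Itgb5 difference was -0.44 (adjusted p = 0.368) and that of Itgam was -0.86 (adjusted p = 0.0691). With array weights the Itgam difference was -0.57 (adjusted p = 0.115). The Itga6 call was lost without 3-month APP replicate 1 or 3 (adjusted p of 0.111 and 0.0752) and without Clec7a+ APP replicate 1 (0.0530). The Itgb5 call was lost in 19 of 33 alternatives in all, of which 14 left out a single library.

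In Clec7a+ TAU against 3-month TAU, 8 of 10 genes were called, 4 higher and 4 lower, where 13.5% of all probe sets were (6.67% higher and 6.81% lower), and the same number did not overlap, against 17.2% of all probe sets. Itgax was at least 35.6-fold higher (adjusted p = 1.67e-15, limma, BH), and Itgb2 rose by 0.87 ± 0.25 (adjusted p = 0.0239). Itgal and Itga4 were called higher within the background range (adjusted p of 0.00285 and 0.0109). Itga9 was 9.55-fold lower (adjusted p = 5.26e-08), Itgam 2.46-fold lower (adjusted p = 0.000669) and Itgb1 1.99-fold lower (adjusted p = 0.00947). Itga6 fell by 0.68 ± 0.22 (adjusted p = 0.0441), with values of 14.08 to 14.47 in Clec7a+ TAU and 14.69 to 15.07 in 3-month TAU. The Itga6 call was lost when any 1 of 8 libraries was left out, with adjusted p of 0.0520 to 0.119, among them 3-month TAU replicates 1, 2 and 3 and Clec7a+ TAU replicates 1, 2 and 3. The Itgb2 call was lost without 3-month TAU replicate 3 or 4 (0.0532 and 0.106) or Clec7a+ TAU replicate 1 or 3 (0.0677 and 0.0652), and that of Itga4 without Clec7a+ TAU replicate 2 (0.0515).

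Age in WT mice and genotype at 3 months, where no Clec7a gate is named for either side, moved none of the integrins past the threshold. In 12-month against 3-month WT, limma called 0 of 10, and none had a p below 0.05 before adjustment (0 of 10); 0.036% of all probe sets were called there. The largest differences were 0.38 for Itga4, at background, and -0.37 (-0.365) for Itga6, and Itgb1 averaged 12.32 in both groups. In 3-month APP against 3-month WT, 0 of 10 integrins and 0 of all probe sets were called, and 0 of the 10 had an unadjusted p under 0.05. These groups also differed in Y-linked signal, as given below. In 3-month TAU against 3-month WT, 0 of 10 and 0 of all were called as well, and 1 of the 10, Itga9, had an unadjusted p under 0.05. Its means were 13.77 (13.765) ± 0.53 in TAU and 13.15 (13.145) ± 0.25 in WT (SD, n = 4 each). The limma p was 0.0459 before adjustment, and the adjusted p was 0.998. Fits on only the groups compared also called 0 integrins in these comparisons. On simulated data with the Clec7a+ APP and 12-month WT layout, the same fit found 60 of 100 shifts of 1. Those data held many planted shifts, which loosens the adjustment. With few or no probe sets called here, and only 3 samples in 3-month APP, shifts of 1 would be found less often. Shifts of that size or smaller could be missed.

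The difference between strains in the change from 3 months to the older age was tested as an interaction. For APP against WT the fitted value was 5.76 ± 0.33 for Itgax (adjusted p = 6.57e-11, limma, BH) and -4.03 ± 0.43 for Itga9 (adjusted p = 1.88e-06), 2 of 10 genes where 3.8% of all probe sets were called. For TAU against WT it was 6.86 (6.855) ± 0.32 for Itgax (adjusted p = 2.25e-12), -3.30 ± 0.41 for Itga9 (adjusted p = 2.31e-05) and -1.22 ± 0.34 for Itgam (adjusted p = 0.0479), 3 of 10 where 3.75% were. A Clec7a gate is named for the older transgenic samples and for no others, so gate and interaction cannot be told apart. The Itgam interaction in TAU passed in 10 of 33 alternatives besides, and the interaction in APP was -1.03 ± 0.36 (adjusted p = 0.133), or -1.38 (-1.375) without 3-month APP replicate 3 (adjusted p = 0.0243).

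**Figure D3:**
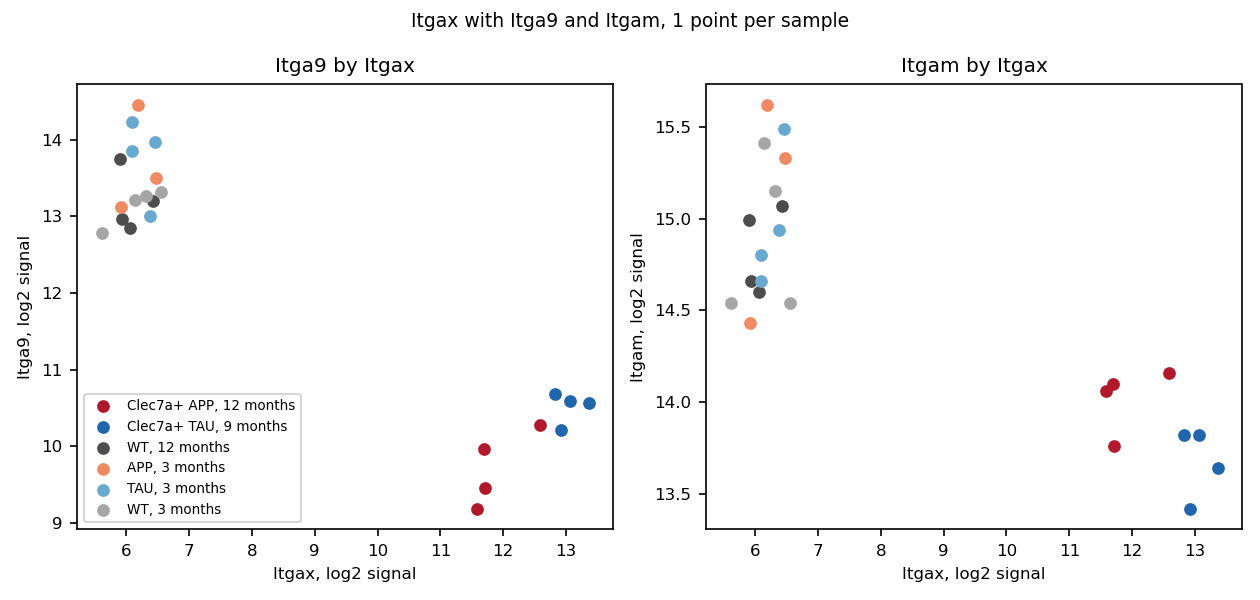
Itga9 (left) and Itgam (right) by Itgax, in log2 signals, 1 point per sample, coloured by group. The 8 Clec7a+ samples form a cluster at Itgax values of 11.59 or more with Itga9 at 10.68 or less and Itgam at 14.16 or less, apart from the other 15 samples; the Clec7a+ APP samples lie left of the Clec7a+ TAU samples.

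Across samples the 3 integrins fell into 2 clusters, the 8 Clec7a+ samples and the other 15. A correlation over all 23 therefore mixes that split with likeness within each cluster. Used only as a measure of likeness over 7845 symbols, Pearson's r over the 23 samples placed Ifi211 (0.990), Ifi204 (0.989), St8sia6 (0.989), Axl (0.988) and Cybb (0.987) closest to Itgax. Ifi211 and Ifi204 belong to an interferon-inducible family, St8sia6 is a sialyltransferase, Axl a receptor kinase for dying-cell ligands and Cybb the catalytic subunit of the phagocyte oxidase. Within the 8 Clec7a+ samples St8sia6 kept a value of 0.929, while the other 4 had 0.349 to 0.504. Within the other 15 samples these genes had 0.310 (St8sia6) to 0.591 (Axl). Closest to Itga9 were Srgap2 (0.972), Pld1 (0.966), Dock4 (0.963), Ivns1abp (0.961) and Casp8 (0.958), and within the Clec7a+ samples these had 0.363 to 0.760. Within the other 15 samples they had 0.517 (Pld1) to 0.819 (Dock4). Closest to Itgam were Zcchc7 (0.937), the growth factor receptor gene Csf1r (0.934), Snn (0.931), Rbm39 (0.919) and Marchf1 (0.914), and within the Clec7a+ samples these had 0.152 (Csf1r) to 0.846. Within the other 15 samples they had 0.636 (Rbm39) to 0.849 (Csf1r). A Clec7a gate is named for every point of the first cluster and for none of the second, and strains are mixed within each cluster.

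Of 27 integrin subunit genes listed, 25 were measured, and 15 of these are outside the 10 described above. Of the 15, 11 were at background in every group, among them Itgae, Itgb7 and Itgb8. Of the 15, 2 rose in both Clec7a+ groups against 12-month WT, Itga5 and Itgad, and 0 fell, where 5.6% of all probe sets were higher and 3.48% lower in APP and 5.09% and 3.67% in TAU. Itgb3 and Itga2b, chains of the platelet fibrinogen receptor, were above background in every group and were not called, with differences from 12-month WT of 0.24 and -0.13 (-0.125) in Clec7a+ APP and of 0.06 and -0.0025 in Clec7a+ TAU.

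Itga5 encodes the alpha chain of the classical fibronectin receptor. It read 10.48, 10.36, 10.78 and 9.59 in Clec7a+ APP, 8.83, 7.71, 10.13 and 8.36 in Clec7a+ TAU, and 6.54, 5.62, 7.27 and 6.11 in 12-month WT. The APP samples were the highest as a group, while TAU replicate 3 fell among them and TAU replicate 2 was at background. Itga5 was at least 4.55-fold higher in Clec7a+ APP (adjusted p = 4.64e-07, limma, BH) and at least 1.56-fold higher in Clec7a+ TAU (adjusted p = 0.000496) than in 12-month WT. The Clec7a+ groups differed by 1.55 (1.545) ± 0.41, APP minus TAU, which was not called (adjusted p = 0.0884) but was without Clec7a+ TAU replicate 3 (adjusted p = 0.00522) and with the replicate block in only the groups compared (0.0301).

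Endothelial cells also express Itga5. The mean of 8 endothelial markers was 6.57, 8.66, 7.65 and 6.84 in the Clec7a+ APP samples, 6.66 to 6.73 in the Clec7a+ TAU samples and 6.76 to 7.34 in the 12-month WT samples. Within Clec7a+ APP it was highest in replicate 2, the sample with the highest Itgax of its group, and lowest in replicate 1. Itga5 in that group was highest in replicate 3, at 10.78, and lowest in replicate 4, at 9.59. Markers above background were 4 of 8 in Clec7a+ APP (Flt1, Ly6c1, Slco1a4 and Kdr), 3 in Clec7a+ TAU and 1 in 12-month WT, and Pecam1 was at background in these 3 groups. Flt1 was called higher in Clec7a+ APP than in 12-month WT and in Clec7a+ TAU, and Pecam1 was called lower in Clec7a+ APP than in 12-month WT. The part of endothelial cells in these results was not tested.

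Itgad encodes CD11d, another partner of CD18, and is a neighbour of Itgax on chromosome 7. It read 6.71, 8.03, 7.82 and 6.90 in Clec7a+ APP, 8.36, 9.03, 7.76 and 7.98 in Clec7a+ TAU, and 6.26, 5.93, 5.23 and 5.03 in 12-month WT. All Clec7a+ samples lay above all WT samples. The APP mean stayed at background, with a log2 difference of 1.75 ± 0.34 (adjusted p = 0.00125, limma, BH), and the TAU mean passed it, at least 1.12-fold over the WT background level (adjusted p = 1.13e-05).

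The list of integrin activators and adaptors had 42 of 46 genes measured. In Clec7a+ APP against 12-month WT, 7 rose and 1 fell, where 5.6% of all probe sets were higher and 3.48% lower; the list's median was 0.11 and that of all probe sets -0.06. In Clec7a+ TAU, 1 rose and 2 fell, where 5.09% were higher and 3.67% lower, with a list median of 0.02. Tln1, the talin of most leukocytes, and Fermt3, the kindlin of blood cells, were not called against 12-month WT in either group, at -0.39 and -0.36 in APP and -0.28 and -0.20 in TAU. Without 12-month WT replicates 2 and 4, Fermt3 was called lower in Clec7a+ APP, at -0.91 (-0.905, adjusted p = 0.0213, limma, BH).

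The list was also counted against the same strain at 3 months. In Clec7a+ APP 4 of the 42 rose and 5 fell, where 12.1% of all probe sets were called in either direction, with a list median of -0.11 and -0.04 (-0.035) over all probe sets. In Clec7a+ TAU 1 rose and 7 fell, where 6.67% of all probe sets were higher and 6.81% lower, with medians of -0.09 (-0.085) and -0.03. Tln1 fell by 1.43 ± 0.31 in Clec7a+ APP (adjusted p = 0.00269, limma, BH) and Fermt3 by 1.17 ± 0.27 (adjusted p = 0.00436). In Clec7a+ TAU, Fermt3 fell by 0.78 ± 0.25 (adjusted p = 0.0380) and Tln1 was not called, at -0.64 (adjusted p = 0.159). The Fermt3 call in TAU was lost without 3-month TAU replicate 1, 2 or 3 or any 1 of the 4 Clec7a+ TAU replicates, with the highest adjusted p, 0.127, without 3-month TAU replicate 2.

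Tln2, another talin, read 11.34, 11.43, 11.42 and 11.13 in Clec7a+ APP, 10.49, 10.21, 10.52 and 10.05 in Clec7a+ TAU, and 10.62, 10.27, 10.74 and 10.14 in 12-month WT. Only the APP samples were high, above all others of these groups. It rose by 0.89 ± 0.20 against 12-month WT (adjusted p = 0.00383, limma, BH) and lay 1.01 ± 0.20 above Clec7a+ TAU (adjusted p = 0.00696). Without 12-month WT replicates 2 and 4 the first was 0.65 (adjusted p = 0.121). Dab2, an endocytic adaptor that binds integrin beta chains, read 9.33, 9.76, 9.58 and 8.71 in Clec7a+ APP, 7.35, 6.88, 7.65 and 7.76 in Clec7a+ TAU, and 6.99, 6.04, 7.51 and 6.81 in 12-month WT. The APP samples were again the high ones, at least 2.34-fold over 12-month WT (adjusted p = 4.74e-05) and at least 2.86-fold over Clec7a+ TAU (adjusted p = 0.00573). Endothelial markers are the values given above.

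Cyth1, a cytohesin that acts on CD18 adhesion, rose by 1.24 ± 0.28 in Clec7a+ APP against 12-month WT (adjusted p = 0.00456, limma, BH), and without WT replicates 2 and 4 by 1.11 (adjusted p = 0.0670). Cytip, its binding partner, was at least 1.09-fold higher there (adjusted p = 2.07e-05). Its call over Clec7a+ TAU (adjusted p = 0.00986) was lost without Clec7a+ APP replicate 2 (0.0601) and with only the groups compared (0.116). Cyth1 lay 1.07 (1.065) ± 0.28 above Clec7a+ TAU, not called without the replicate block (adjusted p = 0.0772) and called with it (0.0123). Rasgrp3, an exchange factor for Rap and Ras proteins, rose by 0.68 ± 0.20 in Clec7a+ APP (adjusted p = 0.0300), a call lost without both WT replicates 2 and 4 (0.458), with only the groups compared (0.153), and without any 1 of 12-month WT replicates 1, 2 and 4 and Clec7a+ APP replicates 2, 3 and 4 (0.0501 to 0.119). Vcl, which encodes vinculin, was called higher in Clec7a+ APP over WT at background (adjusted p = 0.0203), and not without Clec7a+ APP replicate 2 (0.0559). Actn1, an actin crosslinker, was called lower in both Clec7a+ groups and Parvb higher in APP, within the background range. The Parvb call (adjusted p = 0.0417) was lost in 12 of 33 alternatives. Of these, 7 left out a single library, with the highest adjusted p, 0.184, without Clec7a+ APP replicate 3. Fgr, a Src-family kinase of myeloid cells, was at 5.86 ± 0.44 in Clec7a+ APP, 7.62 (7.615) ± 0.35 in Clec7a+ TAU and 5.27 (5.265) ± 0.29 in 12-month WT (SD, n = 4 each), called for TAU (adjusted p = 6.75e-08) although at background. Cib1, a calcium-binding integrin partner, fell by 0.64 ± 0.20 in Clec7a+ TAU (adjusted p = 0.0446), with values of 8.51 to 8.77 in TAU and 9.04 to 9.85 in WT. The Cib1 call was lost when any 1 of 14 libraries was left out, with the highest adjusted p without 12-month WT replicate 3 (-0.44, adjusted p = 0.129).

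Of 46 integrin ligands and counter-receptors 44 were measured, Spp1 and C3 not among them. In Clec7a+ APP against 12-month WT 4 rose and 0 fell, where 5.6% of all probe sets were higher and 3.48% lower. In Clec7a+ TAU 5 rose and 2 fell, where 5.09% were higher and 3.67% lower. The list's median was 0.03 in each, against -0.06 and -0.05 over all probe sets. Most of these were within the background range: Fn1, Thbs1 and Lamc1 in APP, and Fn1, Madcam1 and Lamb2 in TAU. Adam9, a membrane protease that also binds integrins, was above background throughout, at 10.39 (10.385) ± 0.17 in Clec7a+ APP, 10.08 ± 0.16 in Clec7a+ TAU and 9.42 ± 0.36 in 12-month WT (SD, n = 4 each), with adjusted p of 0.00167 and 0.0350 (limma, BH) against WT. The APP call was lost without WT replicates 2 and 4 (0.0778), and the TAU call when any 1 of 6 libraries was left out, the highest adjusted p being 0.135 without WT replicate 2.

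Postn encodes periostin, a matrix protein bound by Itgav-containing integrins. It read 8.61, 9.14, 7.94 and 8.04 in Clec7a+ APP, 11.74, 11.22, 11.53 and 11.43 in Clec7a+ TAU, and 8.60, 8.27, 8.34 and 7.06 in 12-month WT. The TAU samples stood alone. Postn was at least 10.3-fold higher in Clec7a+ TAU than in 12-month WT (adjusted p = 2.72e-08, limma, BH) and differed by -3.05 ± 0.29 between Clec7a+ APP and Clec7a+ TAU (adjusted p = 8.29e-07).

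Vcam1 encodes the adhesion molecule bound by the Itga4 and Itga9 products. It read 7.78, 7.72, 8.17 and 7.87 in Clec7a+ APP, 9.20, 9.17, 10 and 8.77 in Clec7a+ TAU, and 8.10, 8.05, 7.65 and 7.75 in 12-month WT. Again only the TAU samples were high, at least 2.25-fold over 12-month WT (adjusted p = 0.000414, limma, BH), and the difference of Clec7a+ APP from Clec7a+ TAU was -1.40 ± 0.24 (adjusted p = 0.00179). Border macrophage markers, 10 in number, averaged 7.93 to 8.21 in Clec7a+ APP, 8.55 to 9.26 in Clec7a+ TAU and 8.37 to 8.69 (8.685) in 12-month WT, and 5 of 10 were above background in each. Among these 3 groups, the highest marker mean and the highest Vcam1 were both in Clec7a+ TAU replicate 3. At 3 months the marker mean reached 9.40 in APP replicate 2 and 9.55 in TAU replicate 2, where Vcam1 read 7.57 and 7.53. The part of border macrophages in the Vcam1 result was not tested. Jam2, a junctional adhesion molecule, was lower in Clec7a+ TAU, at 7.36 to 7.76, than in 12-month WT, at 8.29 to 9.07 (at least 1.74-fold, adjusted p = 0.00413). Clec7a+ APP samples, at 8.60 to 8.87, lay above Clec7a+ TAU samples (adjusted p = 0.0113), a call lost without Clec7a+ APP replicate 2 (0.0535) or Clec7a+ TAU replicate 2 (0.0511).

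**Figure D4:**
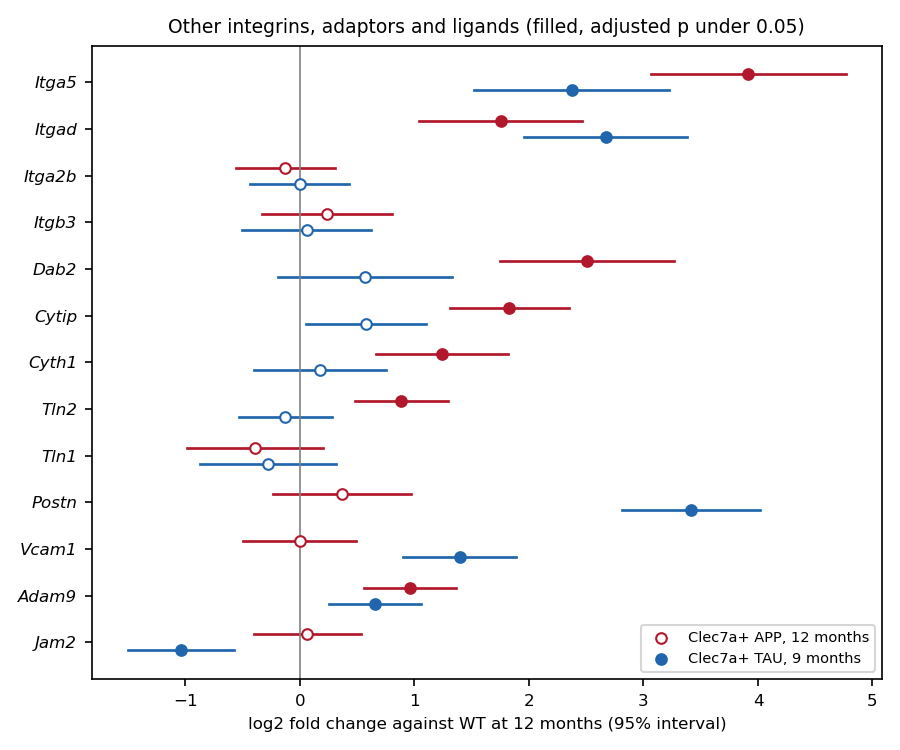
Log2 fold changes with 95% intervals against 12-month WT for other integrins, adaptors and ligands in Clec7a+ APP (red) and Clec7a+ TAU (blue); filled points have an adjusted p under 0.05. Itga5 and Itgad were called higher in both groups, while Dab2, Cytip, Tln2, Postn, Vcam1 and Jam2 were called in 1 of the groups and also between the Clec7a+ groups.

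The 23 arrays had medians of 6.87 to 7.13. Replicates of a group correlated at 0.931 to 0.986 across probe sets, and no 2 arrays were identical. The mean of Y-linked genes ranged from 4.16 to 7.13 in Clec7a+ APP, 4.50 to 6.78 in Clec7a+ TAU and 6.06 to 7.31 in 12-month WT. At 3 months it ranged from 4.14 to 4.62 in APP, 3.997 to 6.88 in TAU and 6.98 to 7.46 in WT. The 3-month APP and 3-month WT ranges did not overlap, so strain and Y-linked signal cannot be told apart between these groups. The 3-month APP samples also enter the comparison with Clec7a+ APP and the APP interaction. With this mean as a covariate, Itgax and Itga9 in both Clec7a+ groups and Itgam in Clec7a+ TAU were called against 12-month WT as before. Calls lost with it were those of Itgam in Clec7a+ APP against 12-month WT (adjusted p = 0.0550, limma, BH) and in the TAU interaction (0.0587). Against 3-month APP it ended the calls of Itga6 (0.0596) and Itgb5 (0.105), and against 3-month TAU those of Itga6 (0.0693) and Itgb2 (0.0568).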

How the data were processed

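Gene expression of sorted microglia was measured on 1-colour microarrays from 5 ng of total RNA, amplified and labelled with a 3′ labelling kit per the labels' protocols. The authors deposited a log2 signal for each probe set, made with RMA in the Transcriptome Analysis Console, per the submitters' processing notes; versions, filters and genome build are not given in the sources used here. RMA sets the arrays to a common distribution, so a change in total RNA per cell cannot be seen. Precision is limited by how few arrays each group has.

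The values were used as deposited. A group-means model was fitted to all 23 samples with limma 3.58.1 under R 4.3.3 (eBayes, 17 residual and 5.11 prior degrees of freedom), with 10 two-sided contrasts and Benjamini-Hochberg adjustment over all 22203 probe sets. A fold against a group at background is given as at least the mean of the brighter group over that group's background level. No probe set's level was set against another's. Symbols came from the platform annotation, and for a symbol with several probe sets the one with the highest mean was used; each integrin had 1. Itgal, Itga6 and Itgb2 had no promoter entry, and no genome was used.

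The integrins, gene lists and tests were chosen with earlier results of these data known. Genes of the lists were named by the largest called differences, at most 6 per list and direction, and Rasgrp3, Tln1, Fermt3, Itgb3, Itga2b and Klrb1c were named besides, after their values were seen. Same-numbered samples deviated together in 4 of 4 pairs between the Clec7a+ groups (r of 0.303 to 0.554) and between 3-month TAU and WT (0.180 to 0.296). The replicate number was therefore taken as pairing there and was run as a block. Against 12-month WT, r was 0.0853 to 0.623 in Clec7a+ APP (mean 0.318) and 0.0945 to 0.555 in Clec7a+ TAU (mean 0.314). In each, only 3 of 4 pairs passed the cut in r that was used. Pairing in these comparisons with WT is therefore not excluded, and the block was run for them too. On simulated data with 22203 probe sets and the Clec7a+ APP and 12-month WT layout, 60 of 100 shifts of 1 and 95 of 100 shifts of 2 were called, with 8 unshifted ones. The alternatives, 33 in number, covered the scaling, filter, weights, prior, block, a Y-linked covariate and each sample left out.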

Additional observations from a re-analysis of the deposited data

Results flagged for a closer look

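Clec7a+ APP replicate 2 had an Itgax signal of 12.58, farther from the other 3 samples of its group (11.59 to 11.71) than a Dixon test allows (gap over range 0.879). It was the single such value among 50 groups of 4 samples tested, where chance gives about 1 in 20 groups. The same sample had the highest mean of endothelial markers in its group, 8.66.

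Differences between groups in the effect of age plus gate stood out for Itgax, at 5.76 in APP and 6.86 (6.855) in TAU relative to WT, and for Itga9, at -4.03 in APP and -3.30 in TAU. They also did for Itgam in TAU, at -1.22 (adjusted p = 0.0479, limma, Benjamini-Hochberg). The direct difference between the Clec7a+ groups was past the threshold for Itgax, at -1.15 (APP minus TAU).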

How the results depend on the processing

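Itgax and Itga9 kept their direction and their call in all 33 alternatives in each Clec7a+ group, against 12-month WT, against the same strain at 3 months and in both interactions. Over 3280 values of the 10 integrins (gene by contrast by alternative), 3177 stayed on their side of the threshold, 85 lost a call, 18 gained one and 0 called values changed sign. Between Clec7a+ APP and Clec7a+ TAU, the number of integrins called was 1, and 0 with only the groups compared; leaving out 1 sample each gave 1. In Clec7a+ APP against 3-month APP it was 5, and 3 with only the groups compared, with array weights, with the Y-linked covariate and with the replicate block in only the groups compared, an alternative added after seeing the data; leaving out 1 sample gave 3 to 5. In the TAU interaction it was 3, and 5 with array weights; leaving out 1 sample gave 2 to 3. The counts with 1 sample left out were 2 to 4 in Clec7a+ APP and 4 to 5 in Clec7a+ TAU against 12-month WT, 6 to 8 in Clec7a+ TAU against 3-month TAU, 2 to 3 in the APP interaction and 0 in the other 3 comparisons.

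With the replicate block on all samples, 4 integrins were called in Clec7a+ APP against 12-month WT (3 without it), 7 in Clec7a+ TAU against 3-month TAU (8 without it), and the same numbers elsewhere. Between the Clec7a+ groups and between 3-month TAU and WT, the block on all samples changed no call of the 10 integrins. Itgax between the Clec7a+ groups kept its call (adjusted p = 0.00583, limma, Benjamini-Hochberg). In Clec7a+ APP against 12-month WT the block on all samples brought a call of Itgb2 (0.0487, and 0.0656 without it). With the block in only those groups, the Itgam call was lost (0.0527). Itga5, outside the 10, was called between the Clec7a+ groups with the block in only the groups compared (0.0301), and not with the block on all samples (0.0567) or without it (0.0884). The calls of Tln1 and Fermt3 in Clec7a+ APP against 3-month APP were lost with the block in only the groups compared (0.0517 and 0.0560), and that of Parvb against 12-month WT with the block on all samples (0.0526). The filter on dim probe sets removed Itgal and Itga4. A mean over all probe sets of a symbol was not run, since each integrin has 1. The causes of these changes were not tested. Signals of Itgax outside the Clec7a+ groups, and of Itgal and Itga4 in all groups, were at background, which limits what can be said of them.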
